A study of Mus musculus with 6 samples.

Results

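The ETS family members described here are 9 transcription factors, ETV1, ETV4, ETV5, ETV6, ETS1, ETS2, ELK3, ELF3 and EHF, measured as RNA by every probe set whose annotation names one of these symbols alone. They are 9 of the 19775 genes that the array's probe sets name alone, read by 34 of its 54675 probe sets. They were followed in 6 arrays of RNA from NCI-H2228 tumours, 2 arrays in each of 3 groups. NCI-H2228 cells derive from a human lung adenocarcinoma with an EML4-ALK fusion, a permanently active form of the ALK receptor kinase. The cells were grown as tumours under the skin of SCID mice, which lack functional T and B lymphocytes but keep other host cells such as fibroblasts, vessels and macrophages. Mice received by mouth either vehicle or the ALK kinase inhibitor CH5424802, later named alectinib, at 4 or 20 mg/kg, and tumours were taken 6 h after the dose. All groups share the cell line, the host strain and the time point, so they describe 1 line. The labels name the organism as mouse while the array reads human transcripts, and they give no age or sex of the animals. Whether both arrays of a group are from different mice is not given, and the p-values reflect the spread among these 6 arrays alone, which may be technical.

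ETS factors share a DNA-binding domain, the ETS domain, that recognises a short core ending in GGAA or GGAT, and many of them are endpoints of the RAS-ERK pathway that receptor kinases such as ALK switch on. In the PEA3 group, made up of ETV1, ETV4 and ETV5, transcription itself is driven by ERK, because ERK signalling relieves these genes from the repressor capicua (CIC). ETS1 and ETS2 are activators that ERK phosphorylates beside their Pointed domain. ETV6 is a repressor of the same broad family, ELK3 is a ternary complex factor that binds DNA with serum response factor, and ELF3 and EHF are factors of epithelial cells.

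Values are log2 intensities, and a difference of 1 on this scale is a 2-fold difference. The lowest intensity of each array is 4.58, or 2.19 on the log2 scale, and is called the floor here. Of the 34 probe sets, 23 had a mean log2 value of at least 4 over the 6 arrays and were tested, all of them at 5.10 or higher in every array, and 11 lay at 3.99 or lower in every array and were not tested. None of the 23 thus owes its place to a single group. The arrays of a group correlated at 0.993 (vehicle), 0.994 (4 mg/kg) and 0.997 (20 mg/kg) across the 19830 tested probe sets, which are not independent replicates, and arrays of different groups at 0.974 to 0.992. The intensity of an 18S rRNA control probe set (5′ end) was 1713 and 4058 with vehicle and 374 to 637 over the 4 treated arrays. Both vehicle arrays stood above every treated array. Vehicle replicate 2 stood highest, and results that rest on it are given without it. Leaving it out does not remove the difference between vehicle and treated arrays. The part of this difference in the results was not tested. The 3′ minus 5′ difference of ACTB ran from -0.02 to 0.10 and that of GAPDH from -0.25 to -0.01 log2 units, with overlapping groups. The 6 epithelial and 3 lung adenocarcinoma markers (EPCAM, CDH1, KRT7, KRT8, KRT18, KRT19, NKX2-1, NAPSA and SFTPB) all lay above a mean log2 value of 8. Of 5 endothelial markers, PECAM1 and KDR had means of 8.65 and 6.58 and CDH5, TEK and VWF were at or near the floor. Of 4 leukocyte markers LYZ was at 5.69 and PTPRC, CSF1R and CD14 were at 2.51, 2.32 and 3.65. Of 5 fibroblast markers COL1A1, COL1A2, COL3A1 and DCN were at 15.04, 10.92, 10.27 and 5.98, and PDGFRB was at the floor. DCN read the same value in all 6 arrays, and LYZ in all but vehicle replicate 1 (5.70), so neither is read as a level. No marker of these 3 lists passed in any comparison. How mouse transcripts read on these human probe sets was not tested.

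Comparing 20 mg/kg with vehicle asks which ETS transcripts differ after the higher dose. ETV5 fell on each of its 3 tested probe sets, ETV1 fell on 2 of 5 and ETV6 on 1 of 2, while EHF rose on 2 of 6. In all, limma called 8 of the 23 tested member probe sets, 6 lower and 2 higher, against a background of 2.63% of all 19830 tested probe sets (1.28% lower and 1.35% higher). The arrays of the groups did not overlap for 21 of the 23, against 47.3% of all tested probe sets, and 17 had an unadjusted p under 0.05, against 21.1%. The median log2 difference was -0.50 over the 23 and 0.00 over all tested probe sets. The 23 sets are repeated readings of 8 genes. In a limma fit of 1 probe set per gene, 4 of 8 passed, beside 445 (4.33%) of 10271 genes. The members were chosen with earlier results of these data known. Their shares, here and in the other comparisons, are thus not independent evidence of a difference from the background. In this bulk RNA, fewer cells of a type and less RNA per cell cannot be told apart. Each call uses limma with Benjamini-Hochberg adjustment over all tested probe sets, and standard errors (SE) are moderated, pooling the spread within the 3 groups. Leaving out vehicle replicate 1 reduced the count of 8 to 5, and leaving out vehicle replicate 2 reduced it to 2. It was 3 when either 4 mg/kg array was left out, 1 when 20 mg/kg replicate 1 was and 0 when 20 mg/kg replicate 2 was. Over all probe sets the 522 calls (2.63%) became 1334 (6.73%) and 185 (0.933%) without vehicle replicate 1 and 2, 86 (0.434%) without either 4 mg/kg array, and 6 (0.0303%) and 0 without 20 mg/kg replicate 1 and 2. A block for the replicate number left 1 call among the members and 2 (0.0101%) over all probe sets.

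For the lower dose, 4 mg/kg was set against vehicle. No member passed (0 of 23 by limma, lowest adjusted p 0.154), where the background was 0.00504%, that is 1 of all tested probe sets. With an unadjusted p under 0.05 there were 10 of 23, against 14.2% of all, and the arrays of the groups did not overlap for 13 of 23, against 34.5%. Centring each array on its median gave 5 calls among the members, beside 769 (3.88%) over all probe sets. Comparing 20 with 4 mg/kg asks what the step between the doses adds. Here 2 of 23 passed, both of them ETV5 and both lower, against a background of 0.212% (0.136% lower and 0.0756% higher). An unadjusted p under 0.05 was found for 12 of 23, against 11.9% of all, and 18 of 23 did not overlap, against 33.7%. Neither call was stable when 1 array was left out. The log2 differences then ran from -2.28 to -2.18 for 203349_s_at and from -1.87 to -1.77 for 216375_s_at. With the replicate block the count of 2 became 0, and over all probe sets it was 0 as well. The 4 mg/kg comparison shares its vehicle arrays with the 20 mg/kg one, so the values at both doses are given side by side below and were not set against each other as independent results.

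ETV5, a PEA3 factor, showed the largest differences among the 9 genes at 20 mg/kg, against vehicle and against 4 mg/kg. On its brightest probe set, 203349_s_at, the 6 log2 values were 10.38 and 10.44 with vehicle, 9.87 and 9.98 at 4 mg/kg, then 7.65 and 7.73 at 20 mg/kg. Both arrays at 20 mg/kg were far below all others, and the 4 mg/kg arrays lay just under the vehicle arrays. ETV5 fell 6.59-fold at 20 mg/kg against vehicle (log2 -2.72, SE 0.06, adjusted p = 0.0104) and 4.69-fold against 4 mg/kg (log2 -2.23, adjusted p = 0.0272), while the log2 difference of -0.49 at 4 mg/kg did not pass (adjusted p = 0.154). This places 203349_s_at at rank 22 from the lowest of the 19830 log2 differences between 20 mg/kg and vehicle.

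The second ETV5 probe set, 203348_s_at, read 9.84 and 9.75 with vehicle, 9.75 and 9.86 at 4 mg/kg, then 7.02 and 7.47 at 20 mg/kg. Its vehicle and 4 mg/kg arrays overlapped, unlike those of 203349_s_at, with a log2 difference of 0.01 at 4 mg/kg (95% interval -0.49 to 0.51) that turned to -0.04 without vehicle replicate 2 and to -0.05 without 4 mg/kg replicate 2. At 20 mg/kg it fell 5.86-fold against vehicle (log2 -2.55, SE 0.17, adjusted p = 0.0278), and against 4 mg/kg it was at log2 -2.56 without passing (adjusted p = 0.0657). The third, 216375_s_at, read 7.86 and 7.82, then 7.40 and 7.50, then 5.68 and 5.58, and fell 4.63-fold at 20 mg/kg against vehicle (log2 -2.21, SE 0.06, adjusted p = 0.0104) and 3.53-fold against 4 mg/kg (log2 -1.82, adjusted p = 0.0272). The 3 probe sets thus gave the same direction at 20 mg/kg and differed at 4 mg/kg. The other ETV5 probe sets, 231083_at and 230102_at, lay within 0.1 of the floor in every array and carry no level. All 3 informative ETV5 probe sets have names ending in _s_at, given to sets whose probes match more than 1 transcript, so leaving such sets out leaves ETV5 untested.

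Without 1 array at a time the log2 change of 203349_s_at at 20 mg/kg against vehicle stayed between -2.76 and -2.68. Its call was lost without 20 mg/kg replicate 1 (-2.68, adjusted p = 0.0672) and without 20 mg/kg replicate 2 (-2.76, adjusted p = 0.0648), and so was that of 216375_s_at (-2.26 and -2.16, adjusted p = 0.0672 and 0.067). The call of 203348_s_at was lost without any 1 of the 6 arrays, with values from -2.78 to -2.33 and adjusted p-values from 0.0539 to 0.102. With the replicate block 203349_s_at was called and the adjusted p was 0.0727 for 203348_s_at and 0.0586 for 216375_s_at.

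ETV1, the PEA3 factor best known as a survival factor downstream of KIT and ERK in gastrointestinal stromal tumours, was lower on all 5 of its probe sets at 20 mg/kg, and 2 of them passed. On the brightest, 221911_at, the log2 values were 11.30 and 10.90 with vehicle, 10.74 and 10.96 at 4 mg/kg, then 9.27 and 9.12 at 20 mg/kg. The vehicle and 4 mg/kg arrays overlapped, and both 20 mg/kg arrays lay more than 1 log2 unit below them. It fell 3.74-fold at 20 mg/kg against vehicle (log2 -1.90, SE 0.18, adjusted p = 0.0419). Its log2 difference at 4 mg/kg was -0.25 (adjusted p = 0.594), and between the doses at -1.66 (adjusted p = 0.114).

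On 217061_s_at ETV1 read 9.14 and 9.12 with vehicle, 8.41 and 8.42 at 4 mg/kg, then 7.63 and 7.27 at 20 mg/kg, 3 groups that do not overlap. This probe set fell 3.20-fold at 20 mg/kg against vehicle (log2 -1.68, SE 0.13, adjusted p = 0.0333). It was at log2 -0.71 at 4 mg/kg (adjusted p = 0.206) and at -0.96 between the doses (adjusted p = 0.139). The remaining ETV1 sets did not pass at 20 mg/kg: 206501_x_at was at log2 -1.18 (adjusted p = 0.0761), 217053_x_at at -1.50 (adjusted p = 0.12) and 221910_at at -0.88 (adjusted p = 0.113). For 217053_x_at the vehicle arrays read 8.54 and 9.35, the higher being replicate 2, and the log2 difference was -1.09 without vehicle replicate 2 and -1.90 without vehicle replicate 1, where it passed (adjusted p = 0.0495).

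The 5 ETV1 probe sets differed in where the difference arose. At 4 mg/kg 206501_x_at, 217061_s_at, 217053_x_at and 221910_at stood between -0.76 and -0.66 and 221911_at at -0.25, none past the test. The log2 difference at 4 mg/kg was 12.98% of that at 20 mg/kg for 221911_at and from 42.5% to 75.1% for the other 4. Without 1 array at a time it ran from 2.58% (without vehicle replicate 1) to 21.4% (without vehicle replicate 2) for 221911_at and from 28.6% (without vehicle replicate 2) to 58.9% (without vehicle replicate 1) for 217053_x_at. For ETV5 the same share was 18.0% for 203349_s_at, 17.8% for 216375_s_at and -0.311% for 203348_s_at. For ETV1 221910_at both 4 mg/kg arrays and 20 mg/kg replicate 1 read the same 5.84. Its share ran from 60.2% to 100% without 1 array at a time. For ETV1 206501_x_at both 4 mg/kg arrays read the same 8.88, and its share ran from 54.0% to 79.6%. That of ETV1 217061_s_at ran from 38.5% to 47.5%. These shares carry no test. The call of ETV1 on 221911_at was kept only without vehicle replicate 1 when 1 array was left out (log2 -1.70, adjusted p = 0.0461), its values running from -2.11 to -1.70. That of 217061_s_at was kept only without 20 mg/kg replicate 1 (log2 -1.85, adjusted p = 0.0495), its values running from -1.85 to -1.50. With the replicate block the adjusted p was 0.0888 and 0.077.

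ETV4, the third PEA3 factor, was at or near the floor. The probe set 211603_s_at was at 2.19 in all 6 arrays, and 1554576_a_at was at 2.19 in 5 arrays and at 2.33 in 4 mg/kg replicate 1. Neither was tested, and a difference between the groups could not be measured at this signal.

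**Figure D1:**
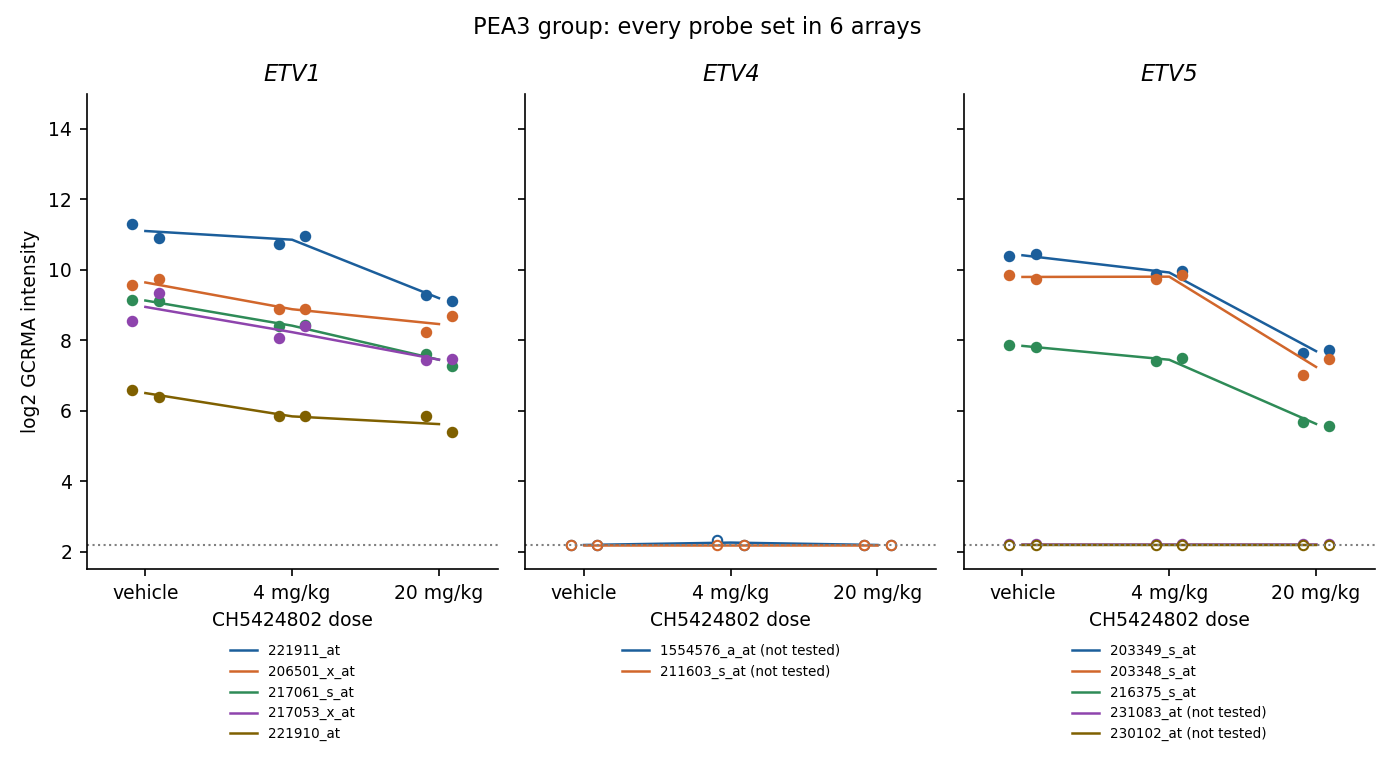
Log2 intensity (vertical axis) of every ETV1, ETV4 and ETV5 probe set by dose group, with 1 point per array, lines through the 2-array means, open points for probe sets that were not tested and a dotted line at the floor of 2.19. All tested ETV1 and ETV5 sets have their lowest mean at 20 mg/kg, ETV5 203349_s_at going from 10.38 and 10.44 to 7.65 and 7.73, and both ETV4 sets lie at the floor.

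ETV6, a transcriptional repressor with a Pointed domain, was lower by a small amount. Its brightest probe set, 225764_at, read 10.06 and 10.16 with vehicle, 9.76 in both arrays at 4 mg/kg, then 9.55 and 9.64 at 20 mg/kg. The 3 groups do not overlap and step down with dose. ETV6 fell 1.43-fold at 20 mg/kg against vehicle (log2 -0.52, SE 0.05, adjusted p = 0.0453), was at log2 -0.35 at 4 mg/kg (adjusted p = 0.178) and at -0.17 between the doses (adjusted p = 0.376). The second set, 235056_at, was at log2 -0.50 at 20 mg/kg (adjusted p = 0.262) and -0.31 at 4 mg/kg, and its 4 mg/kg arrays (7.91 and 8.21) overlapped with vehicle (8.18 and 8.56). The call of 225764_at was kept without vehicle replicate 1 (log2 -0.57, adjusted p = 0.0484) and lost without any 1 of the other 5 arrays, where values ran from -0.56 to -0.47, and with the replicate block (adjusted p = 0.077). The other 3 ETV6 sets lay between 2.19 and 2.61 in every array and were not tested.

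Exactly equal values within a group, within 1e-06 log2 units, occurred in 5 of the 23 tested member probe sets and in 6913 of all 19830. Ties in all 3 groups at once occurred in 0 of the 23 and in 1188 of all 19830. The part of these tied sets in the background shares was not tested. For 225764_at both 4 mg/kg arrays were equal and for EHF 232360_at both vehicle arrays, so the SE of these calls rests partly on ties. Among the uncalled sets, ETV1 206501_x_at and 221910_at were tied at 4 mg/kg and EHF 232361_s_at with vehicle and at 4 mg/kg.

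ETS1, an activator that ERK phosphorylates, did not pass in any comparison. Its 1 tested probe set, 224833_at, read 9.79 and 9.51 with vehicle, 9.88 and 9.96 at 4 mg/kg, then 9.17 and 9.24 at 20 mg/kg. The 4 mg/kg arrays were the highest and the 20 mg/kg arrays the lowest, with no overlap between groups. The log2 difference was -0.45 at 20 mg/kg (95% interval -0.77 to -0.12, adjusted p = 0.15), 0.27 at 4 mg/kg (interval -0.05 to 0.59, adjusted p = 0.428) and -0.72 between the doses (interval -1.04 to -0.39, adjusted p = 0.162). The dim set 1555355_a_at was at 3.99 and 3.56 with vehicle and at 3.27 in all 4 treated arrays, and 214447_at lay at 2.93 in vehicle replicate 2 and from 2.21 to 2.22 elsewhere. Both were under the level minimum and untested.

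ETS2, the close relative of ETS1, stood lower at both doses without passing. Its 1 tested probe set, 201329_s_at, read 8.99 and 9.58 with vehicle, 8.23 and 8.47 at 4 mg/kg, then 8.32 and 8.25 at 20 mg/kg. All 4 treated arrays were below both vehicle arrays and the 2 doses overlapped. The log2 difference was -0.93 at 4 mg/kg (adjusted p = 0.26), -0.999 at 20 mg/kg (adjusted p = 0.138) and -0.07 between the doses (95% interval -0.75 to 0.61), and the last turned to 0.05 without 4 mg/kg replicate 2. Vehicle replicate 2 was the higher vehicle array, as for the 18S control. Without it the log2 differences were -0.64 at 4 mg/kg and -0.70 at 20 mg/kg, and without vehicle replicate 1 they were -1.23 and -1.30. The sets 201328_at and 241193_at lay between 3.60 and 3.84 in every array and were not tested.

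ELK3, also called NET, a ternary complex factor that represses until ERK phosphorylates it, gave opposite signs on its 2 probe sets. The brighter, 221773_at, read 11.05 and 10.77 with vehicle, 11.36 and 11.70 at 4 mg/kg, then 10.98 and 11.18 at 20 mg/kg. The 4 mg/kg arrays were above all others, and the 20 mg/kg arrays overlapped with vehicle. Its log2 difference was 0.62 at 4 mg/kg (adjusted p = 0.286) and 0.17 at 20 mg/kg (95% interval -0.34 to 0.68, adjusted p = 0.628). The dimmer, 206127_at, read 6.21 and 6.31, then 5.39 and 5.69, then 5.10 and 5.49, and was at log2 -0.72 at 4 mg/kg (adjusted p = 0.266) and -0.97 at 20 mg/kg (adjusted p = 0.105). Since neither passed and the 2 sets disagree, no direction is given for ELK3.

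**Figure D2:**
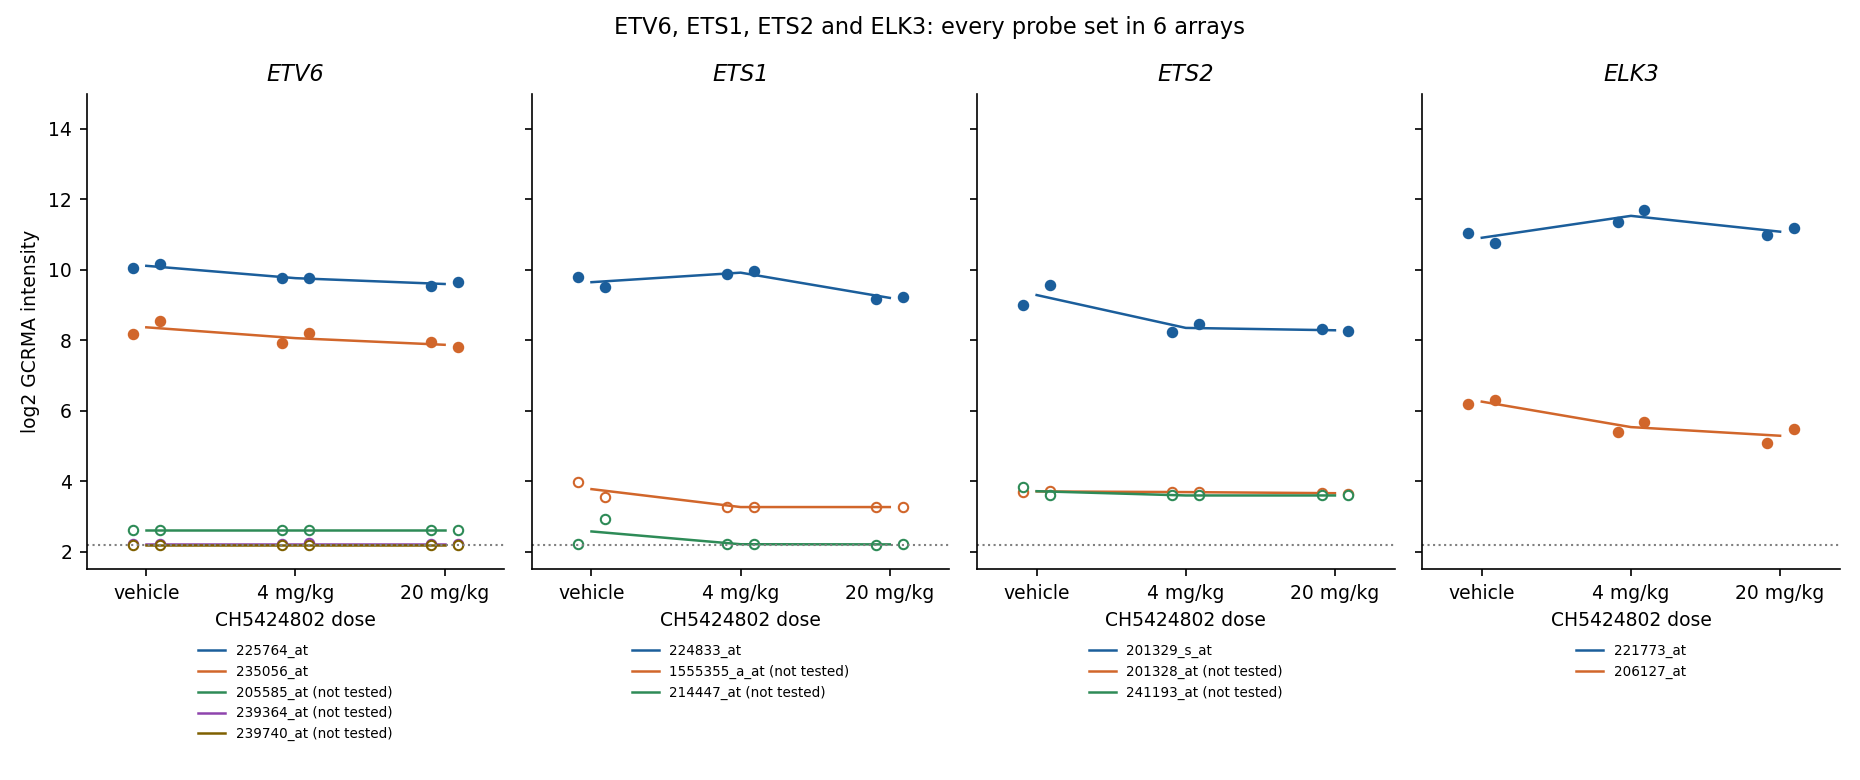
Log2 intensity (vertical axis) of every ETV6, ETS1, ETS2 and ELK3 probe set by dose group, drawn as 1 point per array with lines through the means, open points for untested sets and a dotted line at the floor. ETV6 225764_at steps down from 10.06 and 10.16 to 9.55 and 9.64, ETS2 201329_s_at is lower in all 4 treated arrays, and the 2 ELK3 sets run in opposite directions at 4 mg/kg.

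EHF, an ETS factor of epithelial cells, was the 1 member gene with calls in the upward direction. Its brightest probe set, 225645_at, read 13.07 and 13.09 with vehicle, 13.48 and 13.67 at 4 mg/kg, then 14.07 and 13.91 at 20 mg/kg. The 3 groups do not overlap and step up with dose. EHF rose 1.88-fold at 20 mg/kg against vehicle (log2 0.91, SE 0.09, adjusted p = 0.0455), was at log2 0.50 at 4 mg/kg (adjusted p = 0.208) and at 0.41 between the doses (adjusted p = 0.249). The dim set 232360_at also rose, 1.35-fold (log2 0.43, SE 0.04, adjusted p = 0.0443), from 5.47 in both vehicle arrays to 5.91 and 5.89. The 4 mg/kg arrays read 5.46 and 5.36, below both vehicle arrays by a log2 difference of -0.06 (adjusted p = 0.594).

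The other EHF probe sets did not pass but were higher in both 20 mg/kg arrays than in either vehicle array. For 232361_s_at this was by very little in 20 mg/kg replicate 2. That set read the same 7.28 in every vehicle and 4 mg/kg array, then 7.62 and 7.30 at 20 mg/kg. The set 224189_x_at read 10.14 and 10.42 with vehicle, 10.07 and 10.94 at 4 mg/kg, then 11.74 and 11.39 at 20 mg/kg (log2 1.28 at 20 mg/kg, adjusted p = 0.178). The set 219850_s_at was at log2 0.97 at 20 mg/kg (adjusted p = 0.17), 222932_at at 0.75 (adjusted p = 0.133) and 232361_s_at at 0.18 (adjusted p = 0.502). These 4 sets stood at 4 mg/kg between -0.01 and 0.22, none past the test. For 219850_s_at, 224189_x_at and 222932_at replicate 2 was the higher 4 mg/kg array and replicate 1 lay below both vehicle arrays. Leaving out 4 mg/kg replicate 1 turned 219850_s_at to 0.32, and leaving out 4 mg/kg replicate 2 turned 224189_x_at to -0.21 and 222932_at to -0.12. In contrast to these, 225645_at was higher than vehicle in both 4 mg/kg arrays.

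The EHF calls were narrow. That of 225645_at was lost without any 1 of the 6 arrays, with values from 0.83 to 0.99 and adjusted p-values from 0.0851 to 0.162. That of 232360_at was kept without either 4 mg/kg array (adjusted p = 0.0484) and lost without any 1 of the other 4, with values from 0.42 to 0.44. With the replicate block the adjusted p was 0.0982 and 0.0848. Each value was positive under every alternative run.

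ELF3, the other epithelial ETS factor, did not pass on any of its 3 probe sets. The brightest, 210827_s_at, read 10.28 and 11.14 with vehicle, 9.91 and 10.56 at 4 mg/kg, then 11.28 and 11.20 at 20 mg/kg. Both 20 mg/kg arrays were above all others, but the vehicle arrays lay nearly 1 log2 unit apart, with replicate 2 the higher. The log2 difference was 0.53 at 20 mg/kg (95% interval -0.62 to 1.69, adjusted p = 0.53), and it was 0.10 without vehicle replicate 1 and 0.97 without vehicle replicate 2. Between the doses it was 1.01 (interval -0.15 to 2.16, adjusted p = 0.491). The set 201510_at lay between 8.34 and 8.58 in all arrays, with a log2 difference of 0.03 at 20 mg/kg (interval -0.17 to 0.24), and 229842_at was at 0.40 (interval -0.49 to 1.29). Of the 6 epithelial markers none passed at 20 mg/kg, and their summed intensity ran from 72595 to 80698 with vehicle and from 61288 to 70655 at 20 mg/kg. Among them EPCAM was at log2 0.50 (adjusted p = 0.125), CDH1 at 0.23 (adjusted p = 0.267), while KRT18 was at -1.54 (adjusted p = 0.0531), KRT7 at -0.92 (adjusted p = 0.193), KRT8 at -0.88 (adjusted p = 0.0668) and KRT19 at -0.34 (adjusted p = 0.157). Their part in the EHF result was not tested.

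**Figure D3:**
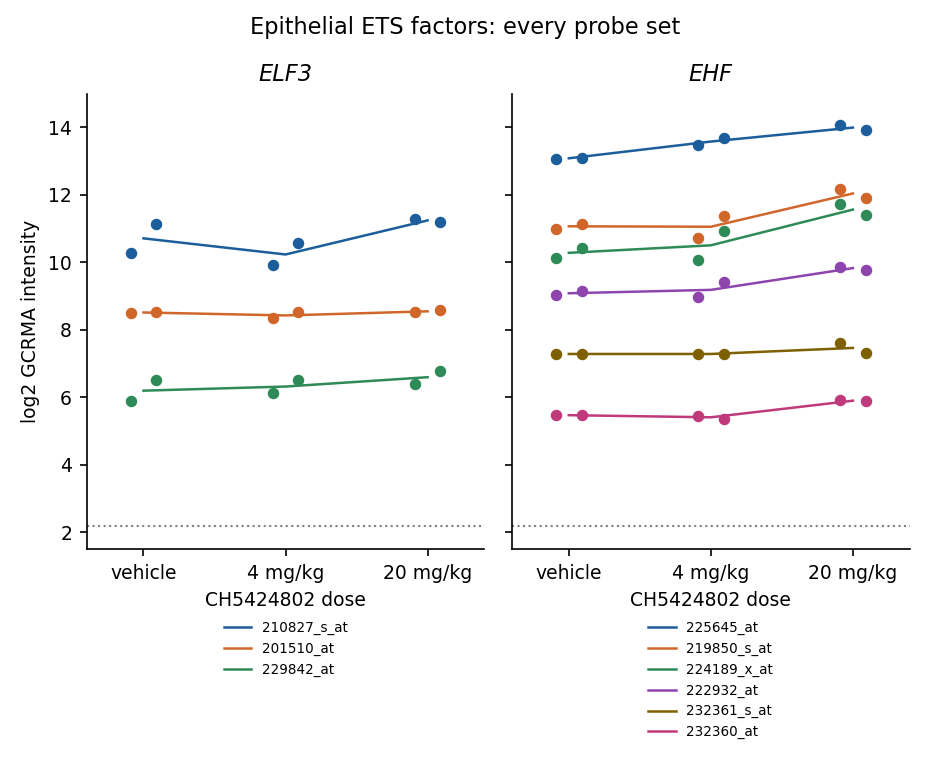
Log2 intensity (vertical axis) of every ELF3 and EHF probe set by dose group, with 1 point per array, lines through the 2-array means and a dotted line at the floor. All 6 EHF sets are higher in both 20 mg/kg arrays than in the vehicle arrays. For 232361_s_at, 20 mg/kg replicate 2 is only just higher (7.30 beside 7.28). EHF 225645_at goes from 13.07 and 13.09 to 14.07 and 13.91, while ELF3 210827_s_at is spread from 10.28 to 11.14 within vehicle alone.

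Set side by side, the brightest probe sets of the members fall into several patterns by dose, described here without a test between genes. ETV5 203349_s_at was at log2 -0.49 at 4 mg/kg and -2.72 at 20 mg/kg, and ETV1 221911_at at -0.25 and -1.90. ETV6 and EHF, on their brightest sets, had 67.9% and 54.5% of their 20 mg/kg difference at 4 mg/kg. ETS2 had 93.3%, and its 2 doses overlapped. ETS1 and ELK3, on their brightest sets, were highest at 4 mg/kg.

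**Figure D4:**
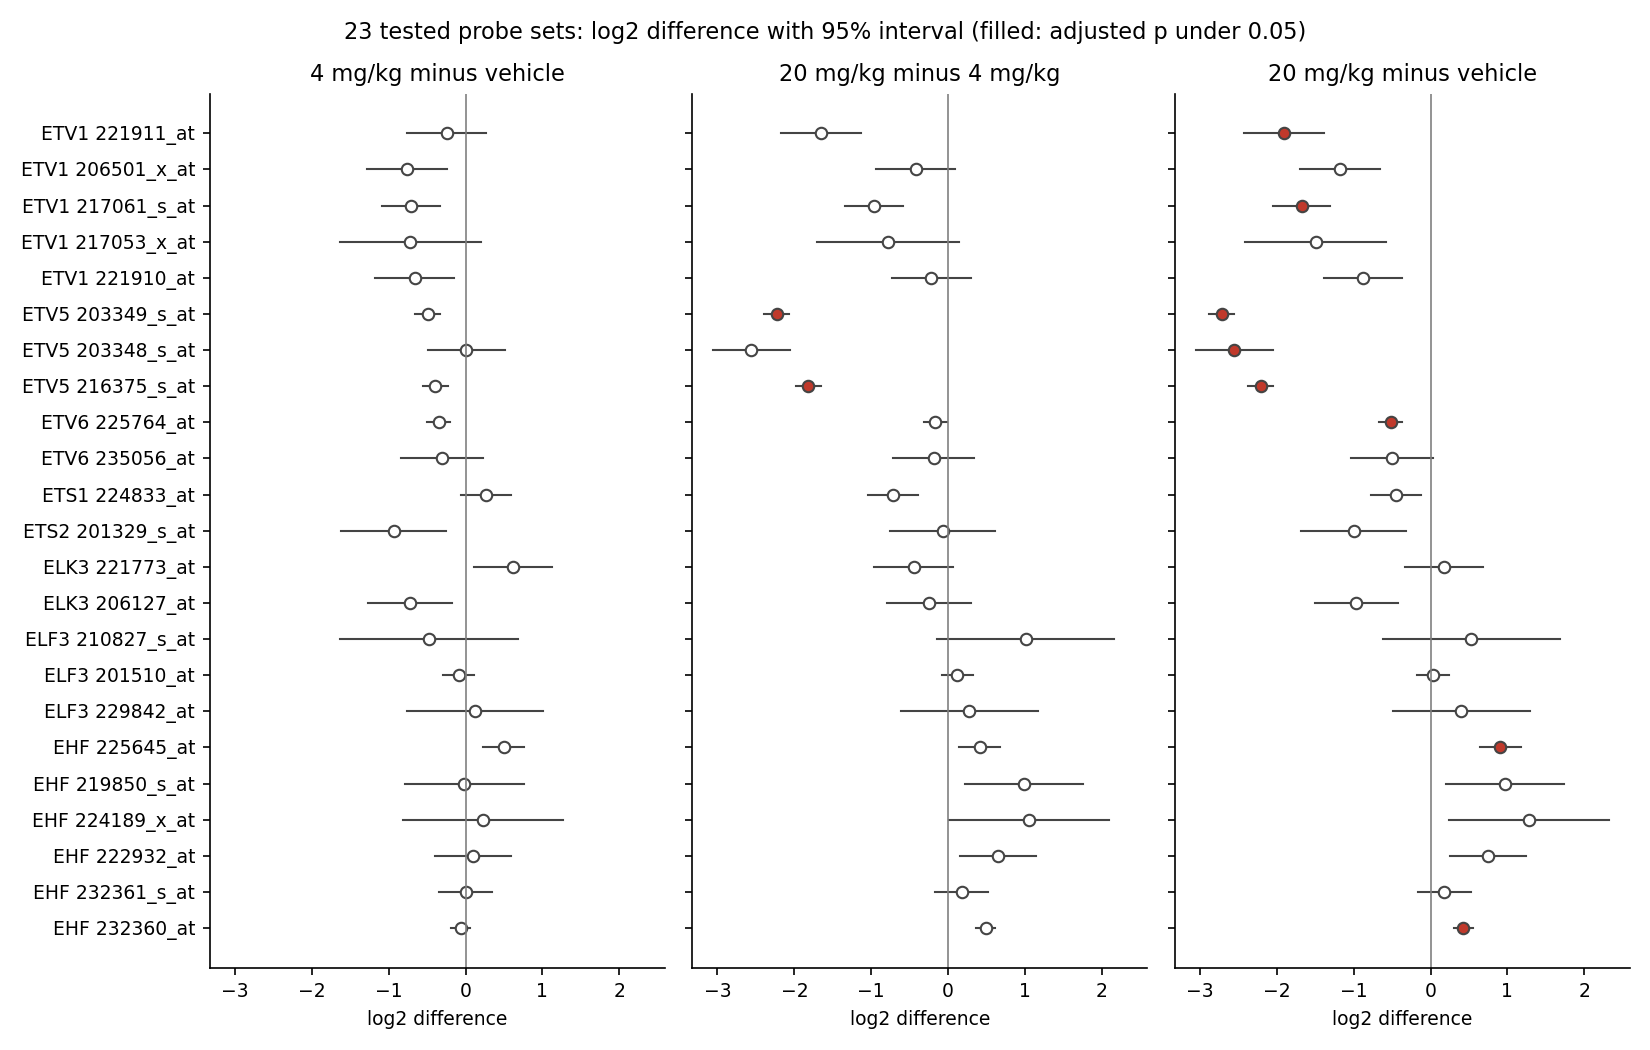
Log2 difference (horizontal axis) with its 95% interval from limma for the 23 tested probe sets in the 3 comparisons, filled points marking an adjusted p under 0.05. No point is filled at 4 mg/kg against vehicle, 2 ETV5 sets are filled between the doses, and 8 sets of ETV1, ETV5, ETV6 and EHF are filled at 20 mg/kg against vehicle.

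The rest of the ETS family was represented by 18 further genes on the array, 10 of them tested on their brightest probe set. At 20 mg/kg 1 rose, none fell and 9 did not pass, against a background of 3.16% (1.62% higher and 1.55% lower) over the brightest sets of 10271 genes; 2 had an unadjusted p under 0.05, near the 21.1% of all probe sets. The gene that rose was GABPA, the ETS subunit of the nuclear respiratory factor GABP, which drives many mitochondrial and housekeeping genes (log2 1.41, SE 0.16, adjusted p = 0.0495). GABPA was at log2 1.21 at 4 mg/kg (adjusted p = 0.174), and its other tested set, 210188_at, was at -0.02 at 20 mg/kg (adjusted p = 0.734). GABPA was still called without vehicle replicate 1 or vehicle replicate 2 and lost its call without any 1 of the other 4 arrays. The median log2 difference of the 10 was -0.01 at 20 mg/kg, beside 0.00 over all genes tested. ERF, a repressor that ERK exports from the nucleus, was at log2 -0.59 (adjusted p = 0.254), ELF1 at 0.56 (adjusted p = 0.209), and the ternary complex factors ELK1 and ELK4 at -0.18 and -0.08. FLI1, a factor of endothelial cells, read 4.92 in every array but 20 mg/kg replicate 1 (4.89). SPI1, a factor of myeloid cells, read 5.37 in every array, and ELF2 read 10.01. Values this constant are not read as levels here. ELF2 and SPI1 had a log2 difference of 0.00 at 20 mg/kg, so they could not pass. With FLI1 they are counted among the 10 and enter the median of the 10. ERG, FEV, ETV2, ETV7, ELF5, SPDEF, SPIB and SPIC were under the level minimum. At 4 mg/kg and between the doses none of the 10 passed by limma, with 2 and 1 at an unadjusted p under 0.05, near the 14.2% and 11.9% of all probe sets.

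Among regulators and cofactors of ETS factors 13 of 15 genes on the array were tested. At 20 mg/kg 1 rose, 1 fell and 11 did not pass, against 3.16% called over all genes, with a median log2 difference of 0.01. MRTFA read the same 5.80 in every array, so it could not pass, and it is counted among the 13. By limma 6 of the 13 had an unadjusted p under 0.05, against 21.1% of all probe sets. TRIB2, a pseudokinase that brings substrates to the ubiquitin ligase COP1, fell (log2 -1.91, SE 0.15, adjusted p = 0.0342), and its second set, 202479_s_at, was at -1.27 (adjusted p = 0.0948). SPOP, a ubiquitin ligase adaptor with ERG among its substrates, rose (log2 1.01, SE 0.08, adjusted p = 0.0328), while its second set, 204640_s_at, was at 0.16 (adjusted p = 0.438). Without 1 array at a time each kept its direction, and the call was kept only without vehicle replicate 1. CIC, the repressor of the PEA3 genes, was at log2 -0.39 (adjusted p = 0.103) and its partner ATXN1L at 0.56 (adjusted p = 0.161). COP1, which marks PEA3 proteins for degradation, was at -0.12 (adjusted p = 0.814). Of the rest, CREBBP was at 1.24 (adjusted p = 0.0723), CUL4A at 1.03 (adjusted p = 0.248) and MRTFB at 0.54 (adjusted p = 0.19). DET1, EP300, ATXN1 and DDB1 were at 0.03, 0.01, -0.02 and -0.32. None of the 13 passed by limma at 4 mg/kg or between the doses, with 5 and 2 at an unadjusted p under 0.05, against 14.2% and 11.9% of all probe sets; 2 of 13 is near that background.

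Genes linked to ETS factors or ERK in other work were collected as a list of 24, all of them tested. This list was drawn up with earlier results of these data known and is not independent evidence of a direction. KRT8 and KRT18 in it are also among the epithelial markers. CLDN7 read the same 11.25 in every array, so it could not pass, and it is counted among the 24. At 20 mg/kg 6 fell, 1 rose and 17 did not pass, against 1.55% lower and 1.62% higher over all genes, with a median log2 difference of -0.74, beside 0.00 over all genes. The ERK phosphatase DUSP6 fell most (log2 -5.47, SE 0.15, adjusted p = 0.0104), followed by the cyclin CCND1 (log2 -3.56, SE 0.26, adjusted p = 0.0305) and the RAS-ERK inhibitors SPRED1 (log2 -2.87, SE 0.23, adjusted p = 0.0342) and SPRED2 (log2 -2.67, SE 0.25, adjusted p = 0.0405). The others that fell were the urokinase receptor PLAUR (log2 -1.40, adjusted p = 0.0104) and the protease inhibitor TIMP1 (log2 -0.34, adjusted p = 0.0495). The collagenase MMP13 rose (log2 2.37, SE 0.18, adjusted p = 0.0327). None of the 24 passed by limma at 4 mg/kg, and between the doses 1 fell, DUSP6. At 4 mg/kg 8 had an unadjusted p under 0.05, against 14.2% of all probe sets. At 20 mg/kg against vehicle there were 16, against 21.1%, and between the doses 14, against 11.9%. The count of 6 became 4 without vehicle replicate 1, 3 without vehicle replicate 2, 2 without either 4 mg/kg array and 0 without either 20 mg/kg array. DUSP6 and PLAUR lost their calls only without a 20 mg/kg array, whereas CCND1, SPRED1, SPRED2 and TIMP1 lost theirs without any 1 of the 6 arrays, so other genes of the list enter the counts of 4 and 3. MMP13 was still called only without vehicle replicate 1. The other tested sets of SPRED1, 235074_at and 244439_at, were at -0.51 and -0.67 without passing (adjusted p = 0.206 and 0.426), while both other sets of DUSP6 and the other set of CCND1 fell (log2 -4.19, -5.84 and -2.48). Of the other PLAUR sets 211924_s_at fell (log2 -0.77, adjusted p = 0.0431) and 214866_at was at -0.09 (adjusted p = 0.429).

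**Figure D5:**
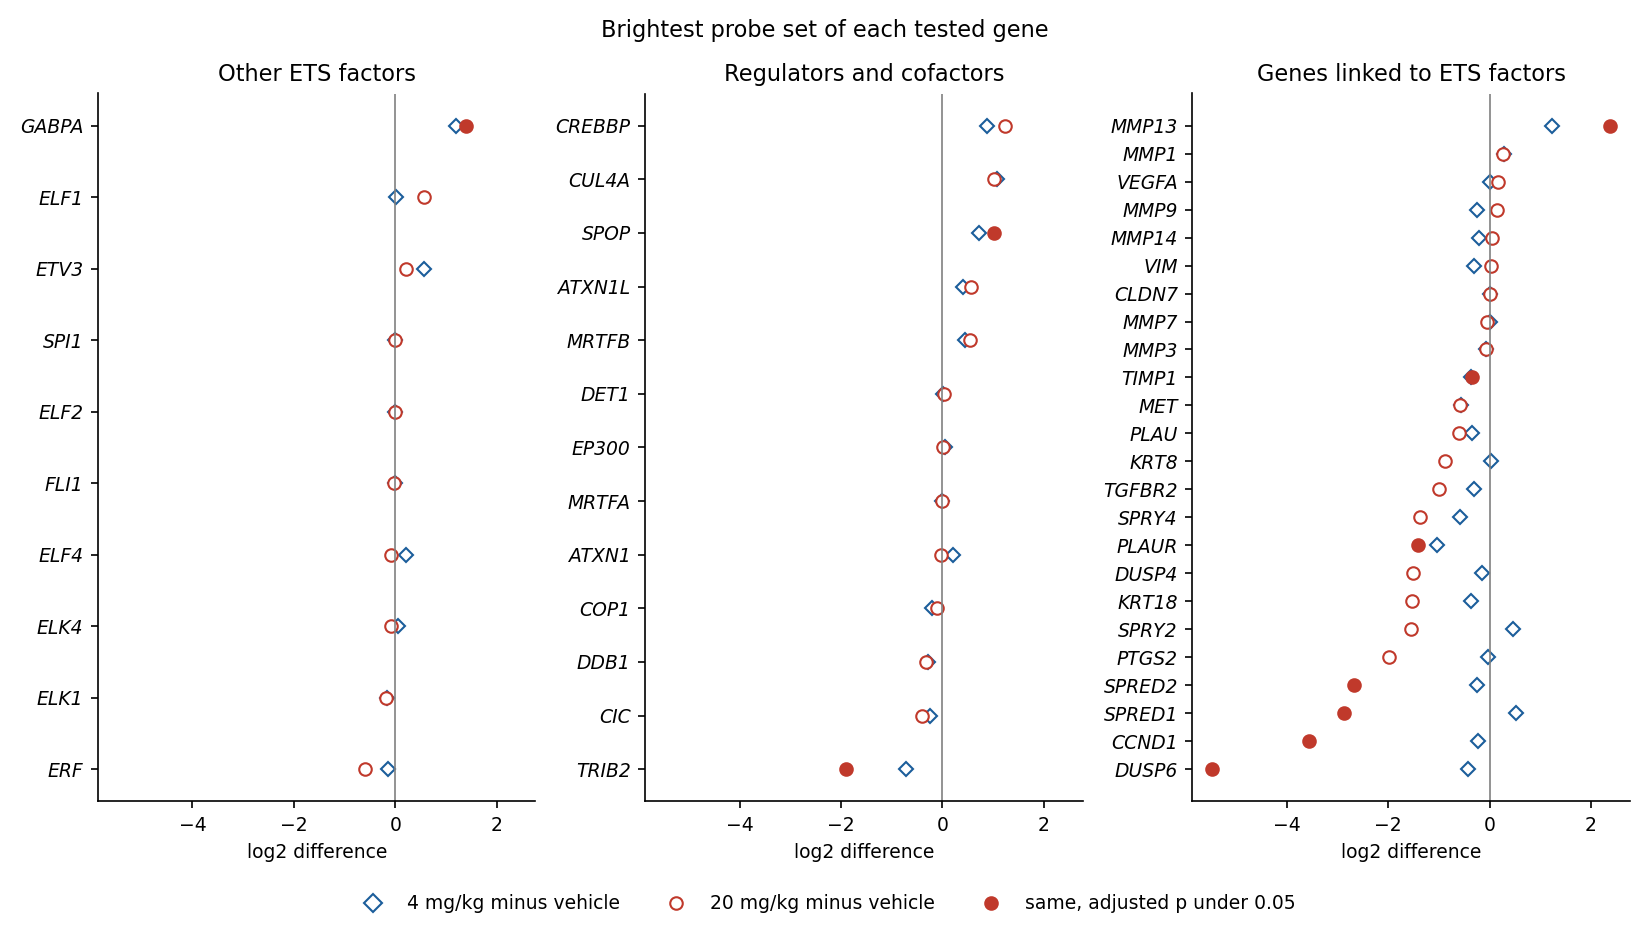
Log2 difference from vehicle (horizontal axis) of the brightest probe set of each tested gene in 3 lists, with blue diamonds for 4 mg/kg, red circles for 20 mg/kg and filled circles for an adjusted p under 0.05 at 20 mg/kg. GABPA is the 1 filled circle among the other ETS factors, TRIB2 and SPOP are filled among regulators, and DUSP6 at -5.47 is the lowest of the linked genes.

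For the 4 members that passed on their brightest probe set, the genes most like them were found by the root mean square difference between mean-centred log2 profiles over the 6 arrays, among the brightest sets of 10270 other genes. Nearest to ETV5 were ANKRD22 (0.117 log2 units), the noncoding host gene MIR100HG (0.184) and SPRED2 (0.185), which stood at -0.27, -0.39 and -0.26 at 4 mg/kg and at -2.60, -2.63 and -2.67 at 20 mg/kg. Nearest to ETV1 were the adaptor PAG1 (0.114), the co-receptor NRP1 (0.141) and the cyclooxygenase PTGS2 (0.153). Nearest to ETV6 were NGRN (0.0195), SH2D3A (0.0347) and the plexin PLXND1 (0.0411). Nearest to EHF were PNRC2 (0.0553), the dynactin subunit DCTN4 (0.0699) and EPC2 (0.074). The measure scales with the size of the differences, so it ranks genes for 1 member and is not compared between members.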

How the data were processed

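Deposited by the authors was a single table of GCRMA intensity on a linear scale (R 2.10.0, per the submitters' processing notes). Whether all arrays were normalized jointly is not stated in these sources. GCRMA as a method corrects background by probe sequence, which compresses low values. Exact ties also occurred well above the floor, as at 9.76 for ETV6 225764_at at 4 mg/kg. Their origin was not tested. Intensities were converted to log2. Probe set symbols are those of the platform's GEO annotation and may be outdated (41097 probe sets with 1 gene, 1801 with several, 11777 with none). Probe sets with a mean log2 value of at least 4 were fitted in limma 3.58.1 (R 4.3.3; lmFit, eBayes) over all 6 arrays, with 3 two-sided contrasts, Benjamini-Hochberg adjustment over 19830 probe sets and a threshold of 0.05. The fit had 3 residual and 0.676 prior degrees of freedom, so the number of arrays limits the precision. All members are named. Of each other list, represented by each gene's brightest probe set, up to 4 genes that passed with the largest change are named; other genes named with values were chosen after their values were seen, apart from further ETS factors. Members and lists were chosen with earlier results of these data known. Alternatives were no level filter, 1 probe set per gene, quantile normalization, centring, a pseudocount of 16, the replicate block, leaving out sets ending in _s_at, _x_at or _a_at, and leaving out each array. Sequences were not used here.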

Additional observations from a re-analysis of the deposited data

How the results depend on the processing

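Over the 10 called member values, 56 of 119 alternative values kept the call, 63 lost it and 0 changed sign. At 20 mg/kg against vehicle the 8 member calls became 2 with no level filter, 4 with the brightest probe set per gene, 16 with quantile normalization, 15 with centred arrays, 1 with the replicate block and 4 without sets ending in _s_at, _x_at or _a_at, and ranged from 0 to 5 without 1 array. The 522 calls over all probe sets became 40, 445, 2158, 2880, 2 and 295 in the same order, and ranged from 0 to 1334 without 1 array. At 4 mg/kg the 0 member calls became 5 with centred arrays, and the 1 call over all probe sets became 3 with no filter, 6 with the brightest set per gene, 30 with quantile normalization, 769 with centring, 0 with a pseudocount of 16, 0 with the replicate block and 2 without the named set types, from 0 to 905 without 1 array. Between the doses the 2 member calls became 0, 1, 5, 8, 0 and 0 in the order first given, from 0 to 3 without 1 array, and the 42 over all became 4, 38, 399, 669, 0 and 28, from 0 to 467. No filter, 1 probe set per gene and leaving out the named set types changed what was tested. They tested 34, 8 and 12 member sets, against 23, and 54675, 10271 and 11337 of all, against 19830. Shares over all at 20 mg/kg against vehicle were 2.63% as reported, then 0.0732%, 4.33%, 10.9%, 14.5%, 0.0101% and 2.6% in the order first given. Between the doses they were 0.212%, then 0.00732%, 0.37%, 2.01%, 3.37%, 0% and 0.247%. The cause of the changes in the counts was not tested. Values that turned sign were all uncalled. At 4 mg/kg ETV5 203348_s_at was at -0.046 with quantile normalization and -0.071 with centring, and ELF3 201510_at at 20 mg/kg was at -0.0015 with centring. Without 1 array at a time, ETV5 203348_s_at ran from -0.046 to 0.062, ELF3 201510_at from -0.18 to 0.0015, ELF3 229842_at from -0.19 to 0.43, EHF 219850_s_at from -0.35 to 0.32, EHF 224189_x_at from -0.21 to 0.66 and EHF 222932_at from -0.12 to 0.32 at 4 mg/kg, and ETS2 201329_s_at from -0.18 to 0.050 between the doses. Deviations of same-numbered arrays correlated at 0.179 (vehicle and 4 mg/kg), -0.10 (vehicle and 20 mg/kg) and 0.115 (both doses), so the numbers were not taken as pairs. The alternatives for the other gene lists were added after seeing the data; the count of 6 lower linked genes ranged from 0 to 14 over settings other than leaving out an array.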
